A study of Mus musculus with 6 samples.

Results

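The genes described here are the thermogenic and beige fat genes Ucp1, Ppargc1a, Ppargc1b, Cidea, Dio2, Elovl3, Prdm16 and Fgf21 in the gonadal white fat (gWAT) of mice, a visceral depot that lies against the male reproductive tract. They were found by NCBI gene identifier, and all 8 were present among the 19790 genes of the count table. Poly(A) RNA was sequenced from 6 C57BL/6 wild-type mice, 3 on a normal chow diet (NCD) and 3 on a high-fat diet (HFD) for 8 weeks, with 1 library per mouse and between 49575113 and 66360046 counts per library. All animals were housed at 22 ± 1 °C with 12 h of light, and the labels name no cold exposure or drug. The labels give an age of 6 weeks for the feeding, the study's methods an HFD start at 8 weeks and adult males throughout, and the HFD animal called replicate 3 carries the number 4 in its second label. The comparison asks how much of the heat-producing program is transcribed in visceral fat and whether it differed between the diets.

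Brown and beige adipocytes burn fat for heat. Noradrenaline from sympathetic nerves acts on the β3-adrenergic receptor, raises cyclic AMP and switches on a program driven by the coactivator PGC-1α and the regulator PRDM16. The output is UCP1, a carrier that lets protons back across the inner mitochondrial membrane without making ATP. gWAT of mice is the depot known to brown least, and a housing temperature near that of a room gives mice a mild cold stimulus.

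NCD replicate 1 stood apart from the other libraries, so the edgeR results are given with and without it. Seminal vesicle secretion genes such as Svs2 took 58.6%, 11.2% and 2.30% of the counts of NCD replicates 1 to 3, and 1.21e-05% or less in each HFD library. The 12 adipocyte genes took 0.432%, 3.71% and 5.05% of the NCD counts against 2.66%, 2.41% and 1.90% of the HFD counts, and the adipocyte hormone Adipoq was present in every library. By the quasi-likelihood test of edgeR, with p-values adjusted over all tested genes and a threshold of 0.05, 5 of 8 macrophage genes were higher on HFD, 8 of 8 without NCD replicate 1. Their summed level was 185 to 904 CPM (counts per 1000000 counts of the library) on NCD and 2970 to 5590 on HFD. Of 12 adipocyte genes none passed on 6 mice (3 at an unadjusted p under 0.05, 3 by DESeq2, 0 by limma), and 5 were lower without NCD replicate 1. Lower on HFD were 9 of 11 seminal vesicle, 2 of 12 epithelial and 1 of 6 skeletal muscle genes, and 1 of 8 mesothelial genes was higher. On 6 mice none of 8 smooth muscle, 5 liver, 7 endothelial and 1 epididymal genes passed (unadjusted p under 0.05 for 5, 2, 1 and 0, DESeq2 for 5, 1, 1 and 1, limma for 2, 0, 0 and 0). The DESeq2 counts, here and below, cover every gene of a list, also those with too few counts for the edgeR test. With NCD replicate 1 left out, 11 of 11 seminal vesicle, 7 of 12 epithelial, 2 of 7 skeletal muscle and 1 of 5 liver genes were lower on HFD, and 1 of 8 mesothelial and 2 of 7 endothelial genes were higher. The gene of the liver list was Cyp2e1 (log2 fold change -5.01 ± 0.89, edgeR adjusted p = 0.018), and 3 of the 5 liver estimates were above 0. In that fit 3 of 8 smooth muscle genes were lower and 1 higher, and the epididymal gene did not pass (not at an unadjusted p under 0.05 nor by limma). DESeq2 called 1 gene of the epididymal list, which need not be the gene that edgeR tested. Over all tested genes, 7.47% passed with edgeR on 6 mice and 20.9% without NCD replicate 1. What part these other tissues had in the values below was not tested, and in bulk tissue fewer cells of a type and less RNA per cell cannot be told apart.

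Promoter sequences were matched for 5 of the 8 genes in RefSeq's table for GRCm38.p6, the build that the submitters' notes also name. Of these, 4 hold the letters TGACG in the 150 bases before the annotated start, the half-site of the cyclic AMP response element through which β-adrenergic signals reach DNA, and they are shown for that reason. Each is printed 5′ to 3′ on the gene's strand, and capitals mark the motifs found. Elovl3, Ppargc1b and Cidea had no entry.
Ppargc1a (chr5:51567726-51567875, minus strand): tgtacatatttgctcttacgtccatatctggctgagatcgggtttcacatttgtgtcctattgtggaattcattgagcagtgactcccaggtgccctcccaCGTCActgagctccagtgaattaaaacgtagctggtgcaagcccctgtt
Dio2 (chr12:90739039-90739188, minus strand): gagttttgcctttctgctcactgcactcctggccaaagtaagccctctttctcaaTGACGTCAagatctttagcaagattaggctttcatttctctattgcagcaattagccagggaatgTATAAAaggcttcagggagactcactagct
Ucp1 (chr8:83290198-83290347, plus strand): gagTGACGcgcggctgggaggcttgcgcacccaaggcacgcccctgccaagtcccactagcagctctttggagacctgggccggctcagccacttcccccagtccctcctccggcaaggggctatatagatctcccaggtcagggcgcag
Fgf21 (chr7:45615491-45615640, minus strand): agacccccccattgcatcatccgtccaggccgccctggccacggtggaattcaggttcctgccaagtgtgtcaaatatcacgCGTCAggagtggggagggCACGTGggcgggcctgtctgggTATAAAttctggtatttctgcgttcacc

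On both strands the letters TGACG and the palindromic full element TGACGTCA were searched. A further motif was the TATA box, spelled TATAAA in this search, and the remaining ones were the E-box, spelled CACGTG for this purpose, and the box named after its letters CCAAT. The half-site stood at -147 in Ucp1, and on the opposite strand at -49 in Ppargc1a and -68 in Fgf21, counted from the start site. Dio2 held the full element at -95, which contains the half-site on each strand. It and Fgf21 had a TATA box at -30 and -28, and Fgf21 an E-box at -50. Prdm16 held the CCAAT box at -98 and none of the other motifs. Among all 32851 promoters of the table, 13.3% held the half-site in the same window and 1.36% the full element. The TATA box was found in 7.57% of them, the box of Prdm16 in 24.5% and the E-box in 4.30%. The Ppargc1a gene spans chr5:51454249-52115853, so its window lies at an annotated start inside the gene. A match describes these letters only, and no binding was measured.

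Ppargc1a encodes PGC-1α, the coactivator that couples β-adrenergic signals to mitochondrial biogenesis and Ucp1 transcription. Its level on a scale of CPM with library sizes corrected by the TMM method (trimmed mean of M values) was 2.13, 6.64 and 6.92 in NCD replicates 1 to 3 and 2.51, 1.68 and 0.861 in HFD replicates 1 to 3. NCD replicates 2 and 3 were far above every HFD mouse, and NCD replicate 1 lay among the HFD values. The means were 5.23 ± 2.69 on NCD and 1.68 ± 0.826 on HFD (SD, n = 3 each), a log2 fold change of -1.64 ± 0.60 (SE), and the edgeR adjusted p of 0.13 did not pass. Without NCD replicate 1 the change was -2.0 ± 0.44, 4.0-fold lower on HFD, with an adjusted p of 0.031 by edgeR. Ppargc1a was the only 1 of the 8 genes to pass in either edgeR fit.

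Ppargc1b (chr18:61291445-61400756), encoding the related coactivator PGC-1β, read 2.74, 5.0 and 5.95 TMM-scaled CPM on NCD and 3.45, 2.37 and 1.94 on HFD. The pattern over mice was that of its relative, with NCD replicate 1 inside the HFD range. The log2 fold change was -0.82 ± 0.40 (edgeR adjusted p = 0.22) on 6 mice and -1.07 ± 0.31 (edgeR adjusted p = 0.061) without NCD replicate 1. Per exon length, as FPKM (fragments per kilobase of exon and per 1000000 counts), the ratio of Ppargc1a to Ppargc1b within a library was 0.449, 0.767 and 0.672 on NCD and 0.421, 0.409 and 0.256 on HFD. Every HFD mouse was below every NCD mouse in this ratio, which does not depend on the scaling between libraries (exact two-sided permutation test, p = 0.1, the lowest value possible with 3 mice per diet).

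Prdm16 (chr4:154316122-154637360), the zinc finger regulator that holds brown and beige identity, had the most counts of the 8 genes in every library but NCD replicate 3. It read 10.2, 8.18 and 5.32 TMM-scaled CPM on NCD and 6.07, 4.34 and 5.24 on HFD, and the groups overlapped. Unlike the coactivators it was highest in NCD replicate 1 on this scale. In CPM without the TMM correction it was lowest in that library, at 5.05 against 5.455 to 8.355 in the others. Its log2 fold change was -0.60 ± 0.31 (edgeR adjusted p = 0.25) and -0.36 ± 0.27 without that mouse (edgeR adjusted p = 0.38), and limma on total-count CPM placed it at 0.02. The lncRNA 5930403L14Rik overlaps the gene and held 103, 135 and 50 counts on NCD against 24, 45 and 35 on HFD. The sources used here do not say whether the counting kept strands apart.

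Ucp1 (chr8:83290348-83298456), the proton carrier itself, was at the limit of detection. It had 0 counts in each of the NCD libraries and 6 in each of the HFD libraries, and 6 counts carry an exact Poisson 95% interval of 2.2 to 13.1. On the TMM scale the HFD mice read 0.104, 0.0719 and 0.0956 CPM. Setting NCD at a floor of 3 counts per library, the HFD mean was 1.38-fold higher, and 1.71-fold higher without NCD replicate 1. These are not lower bounds, since a count of 0 has an interval of 0 to 3.69 that overlaps the interval of 6 counts. The exact permutation test on the values of 6 mice gave a two-sided p of 0.1. The gene did not reach the minimum count for the edgeR test, and Zic1, a marker of classical brown fat, had no count in any library.

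Dio2 (chr12:90724552-90739038), the deiodinase that makes active thyroid hormone inside brown adipocytes, read 0.852, 2.06 and 1.3 TMM-scaled CPM on NCD. On HFD it read 0.693, 0.288 and 0.366, and every HFD mouse was below every NCD mouse. The means were 1.40 ± 0.609 and 0.449 ± 0.215 (SD, n = 3 each). The log2 fold change of -1.65 ± 0.53 missed the threshold (edgeR adjusted p = 0.11), as did -1.89 ± 0.52 without NCD replicate 1 (edgeR adjusted p = 0.055). DESeq2 on 6 mice passed it with an adjusted p of 0.033, and passed Ppargc1a with 0.042.

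**Figure D1:**
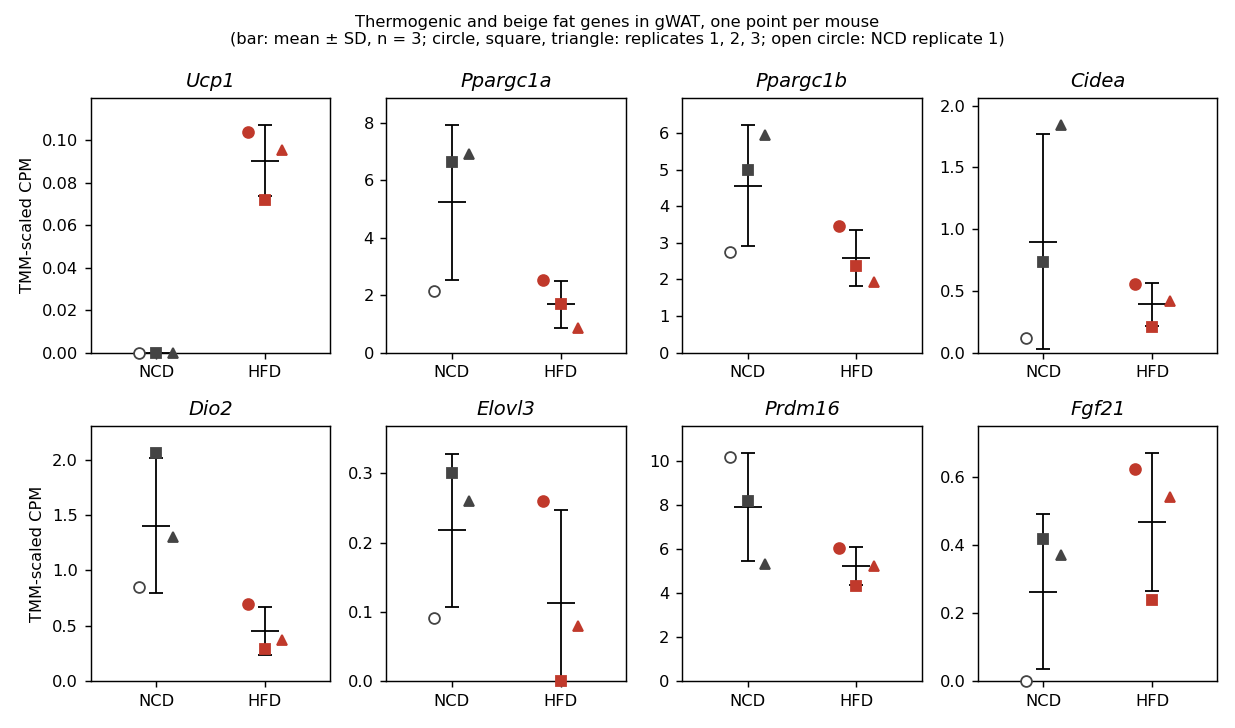
TMM-scaled CPM of each of the 8 genes (y axis) by diet (x axis), with 1 point per mouse and bars at the mean ± SD of 3 mice. Dio2 does not overlap between diets (lowest NCD 0.852, highest HFD 0.693), and for Ppargc1a only NCD replicate 1 (open circle, 2.13) lies among the HFD values.

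Cidea (chr18:67343564-67367794) encodes a lipid droplet protein abundant in brown and beige cells. Its counts were 4, 44 and 99 on NCD and 32, 17 and 26 on HFD, or 0.122, 0.736 and 1.84 against 0.555, 0.204 and 0.414 TMM-scaled CPM. The NCD mice spread more widely than the diets differed, and both NCD replicates 2 and 3 were above all HFD mice. The log2 fold change was -1.22 ± 0.92 (edgeR adjusted p = 0.41), and -1.71 ± 0.63 without NCD replicate 1 (edgeR adjusted p = 0.11). An overlapping lncRNA, B430212C06Rik, held more counts than Cidea in every library, 42 to 189 on NCD and 116 to 393 on HFD.

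Elovl3 (chr19:46131897-46135694), a fatty acid elongase induced by cold in brown fat, was barely counted, with 3, 18 and 14 counts on NCD and 15, 0 and 5 on HFD. The 0 in HFD replicate 2 allows up to 0.0360 TMM-scaled CPM at a floor of 3 counts. The log2 fold change of -1.01 ± 1.20 (edgeR adjusted p = 0.60) was smaller than its error, and without NCD replicate 1 it was -1.34 ± 1.28 (edgeR adjusted p = 0.49). HFD replicate 1 and NCD replicate 3 both read 0.260 TMM-scaled CPM.

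Fgf21 (chr7:45613890-45615490) encodes a hormone made mainly by liver that also acts on and within fat. Its counts were 0, 25 and 20 on NCD and 36, 20 and 34 on HFD, or 0, 0.418 and 0.372 against 0.624, 0.240 and 0.542 TMM-scaled CPM, and the groups overlapped. It was the only tested gene of the group with a positive estimate, 0.77 ± 1.03 on the log2 scale (edgeR adjusted p = 0.64), and 0.25 ± 0.59 without NCD replicate 1 (edgeR adjusted p = 0.78). The liver marker Alb was highest in HFD replicate 1, at 28.0 TMM-scaled CPM against 1.22 to 7.70 in the other mice, which is also the mouse with the highest Fgf21. In HFD replicate 3 Alb was at 2.28 with Fgf21 at 0.542. What part liver RNA had in Fgf21 was not tested.

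Of the 7 tested genes, 0 passed on 6 mice (edgeR, 2 at an unadjusted p under 0.05, 2 by DESeq2 and 0 by limma), where 7.47% of all 15241 tested genes passed. Without NCD replicate 1, 1 of 7 passed, where 20.9% of 15510 tested genes passed in either direction and 10.1% were lower on HFD. Complete separation of the mice with HFD below NCD was seen for Dio2 alone on 6 mice, against 18.7% of all tested genes. Leaving out NCD replicate 1, it was seen for Ppargc1a, Ppargc1b, Cidea, Dio2 and Elovl3, against 29.1% of all tested genes. For Elovl3 it was a near tie, with 14 counts in NCD replicate 3 and 15 in HFD replicate 1, both at 0.260 TMM-scaled CPM. In CPM without the TMM correction the order of these mice turned (0.279 against 0.301). The median log2 fold change of the 7 was -1.01, and -1.34 without NCD replicate 1, beside -0.08 and 0.02 for all tested genes. These 7 are the genes with enough counts to test, not all 8.

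**Figure D2:**
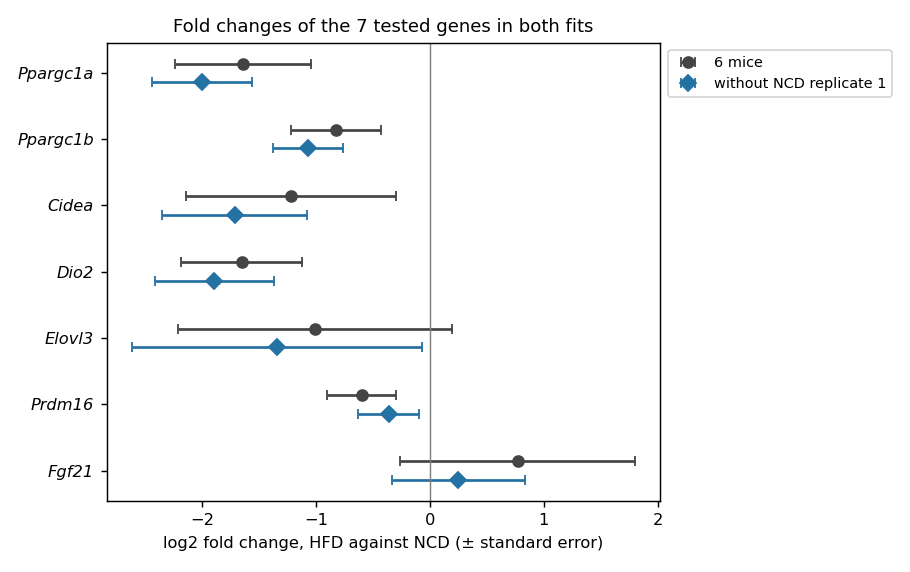
Log2 fold change of HFD against NCD with its standard error (x axis) for the 7 tested genes (y axis), on 6 mice (circles) and without NCD replicate 1 (diamonds). Fgf21 lies above 0 in both fits and the other estimates below 0, and only Ppargc1a without NCD replicate 1 (-2.0 ± 0.44) passed the threshold.

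To set the genes against the amount of adipocyte RNA in each library, their counts were divided by the summed counts of the 12 adipocyte genes. Ppargc1a then read 24.4, 18.3 and 14.7 per 100000 adipocyte counts on NCD and 10.9, 8.74 and 5.72 on HFD. NCD replicate 1, among the HFD mice on the TMM scale, was the highest of all on this one, and the diets did not overlap. The log2 ratio (0.5 count added) differed by -1.19, and by -1.0 without NCD replicate 1 (exact permutation test on 6 mice, two-sided p = 0.1). Ppargc1a was the only 1 of the 8 with every HFD mouse below every NCD mouse, a pattern that 3.17% of all tested genes had.

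The other ratios went different ways. Ppargc1b read 31.4, 13.8 and 12.6 on NCD and 15, 12.4 and 12.9 on HFD, with a log2 difference of -0.39 that became 0.02 without NCD replicate 1. Dio2 read 9.77, 5.67 and 2.76 against 3.02, 1.5 and 2.44, and overlapped by 1 mouse. Cidea overlapped at 1.40 to 3.91 against 1.06 to 2.76, and so did Elovl3 at 0.553 to 1.05 against 0 to 1.13. Prdm16 read 117, 22.5 and 11.3 on NCD and 26.4, 22.6 and 34.9 on HFD, so its log2 difference of -0.17 turned to 0.79 without NCD replicate 1. NCD replicate 1, where adipocyte RNA was scarce, held the highest Prdm16 value on this scale.

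Fgf21 and Ucp1 were the genes with every HFD mouse above every NCD mouse per adipocyte count. Of all tested genes 12.8% had this pattern, and Ucp1 was not among the tested. Counting error is left out of these ratios. The 0 counts of both genes in NCD replicate 1 carry an interval of 0 to 3.69, beside only 286730 adipocyte counts. For Fgf21 the gap was narrow, with 25 counts in NCD replicate 2 and 20 in HFD replicate 2. Fgf21 read 0, 1.15 and 0.789 on NCD and 2.72, 1.25 and 3.60 on HFD, a log2 difference of 2.09 (1.27 without NCD replicate 1, exact permutation p = 0.1 on 6 mice). Ucp1 read 0 in all NCD mice and 0.453, 0.375 and 0.636 on HFD. The adipocyte genes are not a fixed yardstick. In the edgeR fit without NCD replicate 1, 5 of the 12 were lower on HFD and 0 higher, and 10 estimates were below 0. Cfd had the largest fall among them (log2 fold change -3.42 ± 0.49, edgeR adjusted p = 0.011), and Plin1 fell less (-1.17 ± 0.23, edgeR adjusted p = 0.023). A smaller denominator makes a ratio larger, and its part in the ratios above was not tested.

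**Figure D3:**
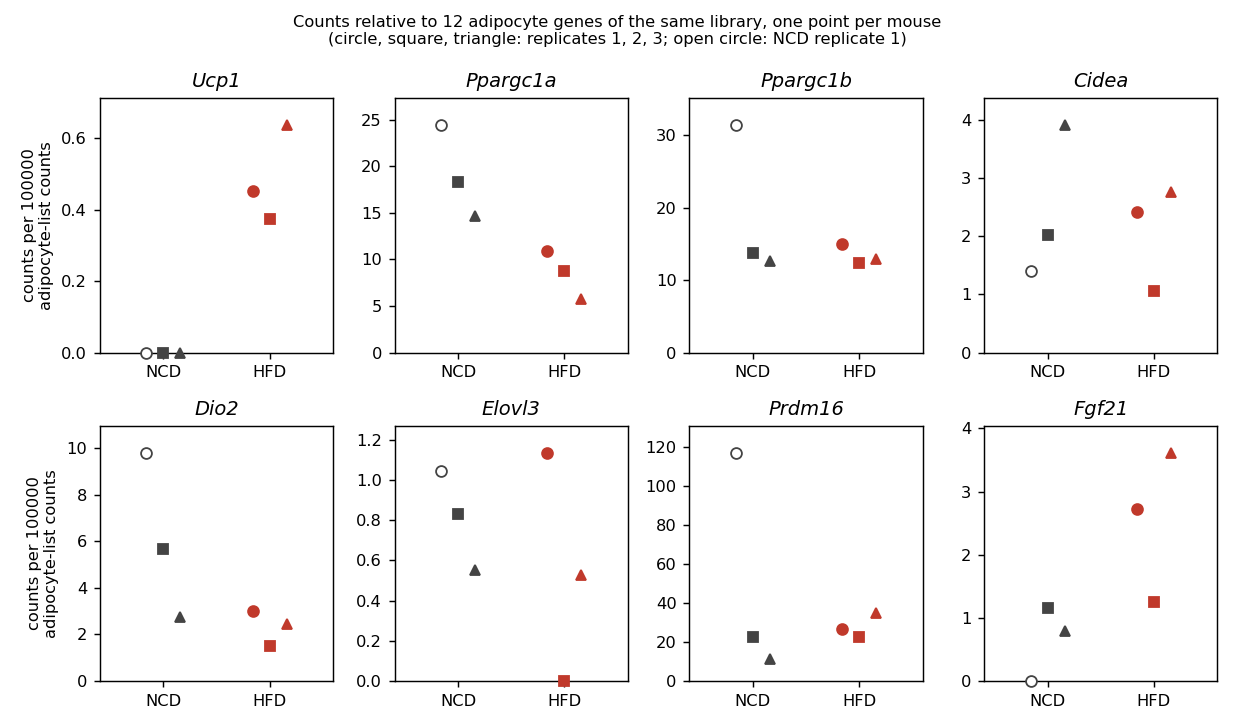
Counts of each gene per 100000 counts of the 12 adipocyte genes of the same library (y axis) by diet (x axis), with 1 point per mouse. Ppargc1a separates downward on HFD (14.7 or more on NCD, 10.9 or less on HFD), and Fgf21 upward by a narrow gap (1.15 or less on NCD, 1.25 or more on HFD). NCD replicate 1 (open circle) is far above the other mice for Prdm16 (117) and Ppargc1b (31.4).

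All 8 genes were weakly expressed. Among the 17794 genes with an exon length, they ranked between the 5.52% and 40.9% marks of FPKM within their library. In NCD replicate 3, as an example, the FPKM values were in the order Cidea 1.77, Ppargc1b 1.71, Ppargc1a 1.15, Prdm16 0.663, Fgf21 0.419, Dio2 0.240 and Elovl3 0.141, with Ucp1 at 0. In HFD replicate 3 they were in the order Prdm16 0.771, Fgf21 0.721, Ppargc1b 0.659, Cidea 0.470, Ppargc1a 0.169, Dio2 0.0798, Ucp1 0.0740 and Elovl3 0.0511. The order differed between mice of a diet: Ppargc1a was above Prdm16 in NCD replicates 2 and 3 (1.05 against 0.971 and 1.15 against 0.663) but not in NCD replicate 1 (0.163 against 0.587). On HFD it was below Prdm16 in each mouse (0.450 against 0.816, 0.326 against 0.634 and 0.169 against 0.771).

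Some relatives of the same families were far more abundant, and others were as weak as the 8 genes. Cideb lay between 0.0823 and 0.451 FPKM, and Elovl2, Elovl4 and Elovl7 at 0.368 or less. Ucp2, a mitochondrial carrier widely expressed in immune cells, was at 36.3 to 45.0 FPKM on NCD and 167 to 223 on HFD. In TMM-scaled CPM it read 301, 176 and 135 on NCD and 768.5, 530 and 663 on HFD. Ucp2 rose on HFD by 1.68 ± 0.36 on the log2 scale (edgeR adjusted p = 0.047, and 2.09 ± 0.24 with 0.0076 without NCD replicate 1). The call on 6 mice was lost with no filter on low counts (edgeR adjusted p = 0.052). It moved with the macrophage genes, and their part in it was not tested. Ucp3 was at 9.10, 31.5 and 41.3 TMM-scaled CPM on NCD and 13.4, 16.7 and 10.3 on HFD, and fell by 1.42 ± 0.23 without NCD replicate 1 (edgeR adjusted p = 0.015), while on 6 mice it did not pass (edgeR adjusted p = 0.26). Cidec, the white fat counterpart of Cidea, exceeded Cidea by 1018-fold to 4773-fold in FPKM within a library, and its log2 fold change was -0.31 ± 0.65 (edgeR adjusted p = 0.78).

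The elongase Elovl6, which lengthens newly made palmitate, had the largest change among the relatives. It was at 96.2, 178 and 176 TMM-scaled CPM on NCD and 8.61, 9.44 and 9.48 on HFD, with a wide gap between the diets. The log2 fold change was -4.03 ± 0.29 (edgeR adjusted p = 0.016) and -4.25 ± 0.12 without NCD replicate 1 (edgeR adjusted p = 0.00040). Elovl5 (-0.26 ± 0.16), Dio3, which inactivates thyroid hormone (0.59 ± 0.51), and Pprc1, the third member of the PGC-1 family (0.13 ± 0.29), did not pass in either fit. Dio1 was at 0.0669 TMM-scaled CPM or less in every mouse and was not tested. In the relatives list 1 gene rose and 1 fell of 11 tested, and without NCD replicate 1, 1 rose and 2 fell of 12.

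**Figure D4:**
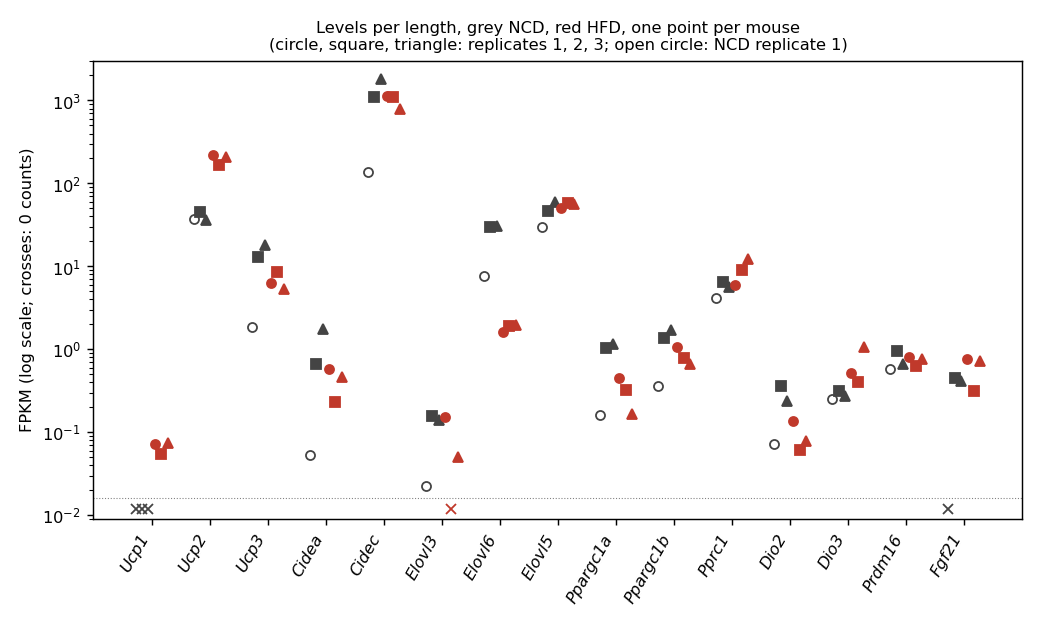
FPKM on a log axis (y axis) of the 8 genes and of family relatives (x axis), grey for NCD and red for HFD, with 1 point per mouse and crosses for 0 counts. The 8 genes lie between 0 and 1.77 FPKM, while Ucp2 reaches 223 and Cidec 1803, and Elovl6 drops from 7.77 or more on NCD to 1.96 or less on HFD.

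Other markers of brown and beige fat were counted as a list of 24 genes. Of 19 tested on 6 mice, 3 were higher on HFD and 0 lower (edgeR), and of 20 without NCD replicate 1, 6 were higher and 0 lower. Among all tested genes, 5.58% were higher and 1.90% lower on 6 mice, and 10.7% and 10.1% without NCD replicate 1. The counts of the lists below stand beside the same shares. Otop1, a proton channel found in brown fat, was at 0.122, 0.719 and 0.167 TMM-scaled CPM on NCD and 12.2, 5.30 and 9.15 on HFD. Pdk4, which spares glucose by blocking pyruvate dehydrogenase, was at 14, 33.7 and 22.4 against 273, 129 and 183. The diets did not overlap for either gene, with log2 fold changes of 4.68 ± 0.80 for Otop1 (edgeR adjusted p = 0.029) and 3.06 ± 0.44 for Pdk4 (edgeR adjusted p = 0.023). Without NCD replicate 1 they were 4.32 ± 0.73 and 2.81 ± 0.39 (edgeR adjusted p = 0.016 and 0.010). Epsti1, listed as a beige marker and known to respond to interferon, rose by 1.67 ± 0.32 (edgeR adjusted p = 0.036), and by 1.49 ± 0.29 without NCD replicate 1 (edgeR adjusted p = 0.022). Its call on 6 mice was lost with total counts (edgeR adjusted p = 0.055) and with limma (adjusted p = 0.051). Tmem26, a surface marker of beige cells, did not pass on 6 mice with edgeR (2.40 ± 0.68, adjusted p = 0.080) but passed without NCD replicate 1 (3.03 ± 0.67, edgeR adjusted p = 0.031). On 6 mice it also passed with total counts (edgeR adjusted p = 0.039), DESeq2 (adjusted p = 0.0040) and limma (adjusted p = 0.039). The respiratory chain subunits Cox7a1 (0.19 ± 0.32) and Cox8b (-0.46 ± 0.64), more typical of brown fat, did not pass, and the macrophage genes moved in the same direction as the markers that rose.

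The next list held β-adrenergic and other inputs to the program. Adrb3, the β3-adrenergic receptor of adipocytes, was at 192, 626 and 1140 TMM-scaled CPM on NCD and 150, 304 and 89.1 on HFD. NCD replicate 1 lay inside the HFD range, so the log2 fold change was -1.85 ± 0.74 (edgeR adjusted p = 0.16) on 6 mice and -2.28 ± 0.55 (edgeR adjusted p = 0.039) without it. In the latter fit Nrg4, a factor secreted by brown fat, fell by 2.29 ± 0.34, the fatty acid receptor Ffar4 fell by 1.47 ± 0.24 and the thyrotropin receptor Tshr fell by 1.37 ± 0.18 (edgeR adjusted p = 0.012, 0.015 and 0.0096). Of 18 tested genes 0 passed on 6 mice (edgeR, 5 at an unadjusted p under 0.05, 4 by DESeq2, 0 by limma), and 4 were lower and 1 higher without NCD replicate 1.

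Among 24 tested transcription factors and cofactors, 0 passed on 6 mice (edgeR, 6 at an unadjusted p under 0.05, 5 by DESeq2, 0 by limma). With NCD replicate 1 left out, 6 were lower and 1 higher. Ppara, a nuclear receptor for fatty acid oxidation, fell by 1.71 ± 0.32, and Nfia fell by 0.79 ± 0.17. Cebpa fell by 1.14 ± 0.20, and Pparg, the master regulator of adipocytes, fell by 1.11 ± 0.17 (edgeR adjusted p from 0.012 to 0.030). These are also genes of white adipocytes, and in the same fit 5 of 12 adipocyte genes were lower.

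Among the repressors of the program, Nrip1, the corepressor that holds Ucp1 and oxidative genes down, was at 59.7, 61.0 and 40.2 TMM-scaled CPM on NCD and 14.9, 21.8 and 14.5 on HFD. It fell by 1.65 ± 0.25 on 6 mice (edgeR adjusted p = 0.025) and by 1.55 ± 0.26 without NCD replicate 1 (edgeR adjusted p = 0.015). The call on 6 mice was lost with total counts (-1.10, edgeR adjusted p = 0.12) and with limma (-1.03, adjusted p = 0.14). Foxo1, a forkhead factor restrained by insulin, passed in the second of these edgeR fits and not in the first (-0.88 ± 0.16, edgeR adjusted p = 0.019). In that list 1 of 12 tested genes was lower on 6 mice and 2 of 12 without NCD replicate 1, with 0 higher in both.

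Around FGF21, its obligate co-receptor Klb was at 14, 54.4 and 46.2 TMM-scaled CPM on NCD and 37.1, 29.3 and 28.4 on HFD. The log2 fold change was -0.27 ± 0.48 (edgeR adjusted p = 0.73), and -0.66 ± 0.16 without NCD replicate 1 (edgeR adjusted p = 0.038). The main FGF21 receptor of fat, Fgfr1, did not pass (0.08 ± 0.44, and -0.26 ± 0.20 without that mouse, edgeR adjusted p = 0.91 and 0.40). Mlxipl, encoding the glucose-responsive factor ChREBP that drives Fgf21 in liver, fell by 1.86 ± 0.20 and Fgfr2 fell by 1.55 ± 0.31 without NCD replicate 1 (edgeR adjusted p = 0.0069 and 0.023). Fgfr2 was at 45.8, 19.9 and 12.2 TMM-scaled CPM on NCD and 4.02, 6.79 and 5.40 on HFD. The epithelial gene Epcam fell in the same order over the NCD mice (115, 11.25 and 2.73). What part epithelial RNA had in Fgfr2 was not tested. Of 10 tested genes 0 passed on 6 mice (edgeR, 3 at an unadjusted p under 0.05, 3 by DESeq2, 0 by limma), and 4 were lower without NCD replicate 1.

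Heat can also come from futile cycles of creatine and calcium that need no UCP1. The list for such heat sources also held the ADP/ATP carriers Slc25a4 and Slc25a5, and Aifm2 and Pm20d1. Of its 14 tested genes, 0 passed on 6 mice (edgeR, 5 at an unadjusted p under 0.05, 5 by DESeq2, 1 by limma). In the fit of 5 mice, 2 were higher and 2 lower. The creatine pathway was split, as Gatm, its first enzyme, rose by 1.6 ± 0.40 and Gamt, its second, fell by 1.44 ± 0.23 (edgeR adjusted p = 0.043 and 0.014). The calcium channel Ryr2 was at 4.54, 0.368 and 0.279 TMM-scaled CPM on NCD and 1.89, 1.47 and 1.42 on HFD, so NCD replicate 1 set its direction. It rose by 2.31 ± 0.41 without that mouse (edgeR adjusted p = 0.017), against -0.10 ± 1.07 with it, and smooth muscle genes such as Myh11 were also highest in that library (1718 TMM-scaled CPM, 54.8 to 204 in the other NCD mice). The ADP/ATP carrier Slc25a4 fell by 0.55 ± 0.14 (edgeR adjusted p = 0.043), and Sln had no count in any library.

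**Figure D5:**
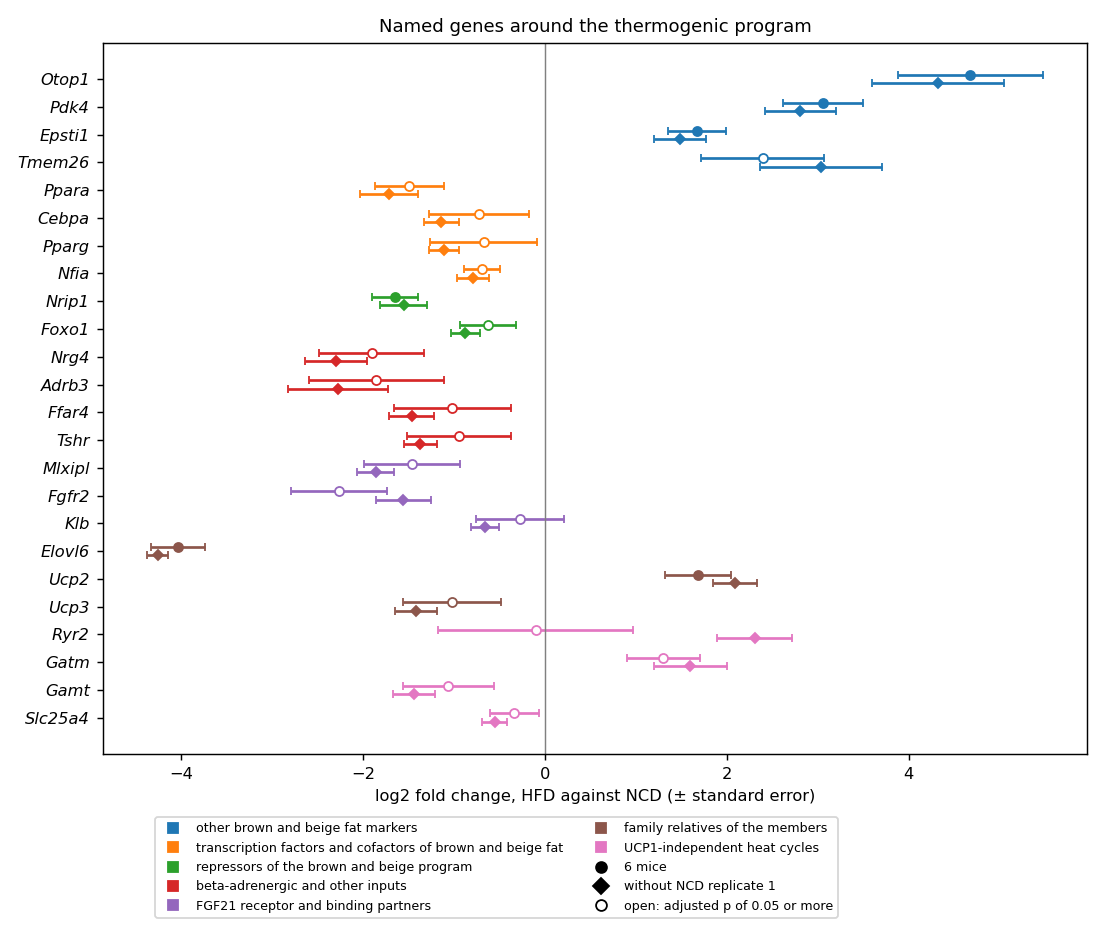
Log2 fold change of HFD against NCD with its standard error (x axis) of the named genes around the program (y axis), coloured by list, on 6 mice (circles) and without NCD replicate 1 (diamonds), filled where the edgeR adjusted p was under 0.05. The markers Otop1, Pdk4 and Epsti1 lie right of 0 and Elovl6 far left at -4.03, and Ryr2 moves from -0.10 to 2.31 when NCD replicate 1 is left out.

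Over all these lists, 6 of 105 tested genes (5.71%) passed on 6 mice, 4 higher and 2 lower on HFD, where 7.47% of all tested genes passed, 5.58% higher and 1.90% lower. Without NCD replicate 1, 30 of 107 (28%) passed, 11 higher and 19 lower, where 20.9% of all tested genes passed, 10.7% higher and 10.1% lower. The median log2 fold change of the listed genes was -0.10 and -0.03 in these fits. The 6 calls on 6 mice were lost when any of the other libraries was left out: without NCD replicate 2, NCD replicate 3, or HFD replicate 1, 2 or 3, 0 of the listed genes passed in each case. Their folds kept their direction, and that of Otop1 moved most from its value on 6 mice. The log2 ranges were -4.04 to -3.89 for Elovl6, 2.74 to 3.42 for Pdk4, 4.35 to 5.90 for Otop1, 1.40 to 1.86 for Epsti1, 1.48 to 1.83 for Ucp2 and -1.85 to -1.53 for Nrip1. Their edgeR adjusted p lay between 0.055 and 0.15. These fits had fewer mice, and over all genes 2 to 7 passed in each.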

How the data were processed

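The authors deposited raw read counts per NCBI gene for 6 mice, 1 column each. The submitters' processing notes name bcl2fastq 2.20.0, Trimmomatic, HISAT2 2.1.0, StringTie 1.3.4d, DESeq2 and build mm10 (GRCm38). For the counting step, no tool is given in the sources used here. Replicate libraries differed beyond sampling noise. Each library was taken as 1 mouse, and p-values measure only the spread between these libraries.

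Symbols came from RefSeq (GRCm38.p6) for 19742 of 19790 identifiers, and exon lengths from GENCODE vM21. Counts were filtered with filterByExpr, scaled by TMM and tested with edgeR 4.0.16 (glmQLFit, glmQLFTest) in R 4.3.3, with Benjamini-Hochberg adjustment over all tested genes, on 6 mice and without NCD replicate 1. The common biological coefficient of variation was 0.424. CPM, FPKM and ratios to 12 adipocyte genes were computed from the counts. The procedure was tested on simulated data. Alternatives were total counts, median-of-ratios scaling, scaling without seminal vesicle genes, no filter, DESeq2 1.42.0, limma 3.58.1 on log2(CPM + 1), a replicate block and each mouse left out.

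The members and gene lists were chosen with earlier results of these data known. Named are all 8 members, up to 4 genes with the largest change past the threshold per list and fit, and 11 relatives and receptors whatever their value. Other genes were named after their values were seen. Bmp8b, Th, Ckmt2, Lcn9 and Cst8 were not analysed here. Intervals and floors cover counting error only. Figures were drawn with matplotlib 3.10.9.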

Additional observations from a re-analysis of the deposited data

How the results depend on the processing

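The direction of the fold change was kept in 90 of 91 alternatives for the 7 tested genes, the exception being Prdm16 at 0.019 with limma. Past the threshold were 2 members with DESeq2, 0 with the replicate block and 0 to 1 with a mouse left out. Without NCD replicate 1, DESeq2 passed 3 and limma 2, where over all genes DESeq2 called 5118 and limma 3387. Of the listed genes, 25 passed with DESeq2, 0 with the replicate block and 0 to 30 with a mouse left out. Equal replicate numbers did not pair the mice (correlations -0.06, -0.05 and 0.01), and over all genes 12 passed with the replicate block and 1139 without it. DESeq2 called 3853 genes and gave no adjusted p for 2276. Without NCD replicate 1, 3234 genes passed, and 2 to 7 without any other mouse.

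The median log2 fold change of all genes, -0.08, became 0.44 with total counts and 0.44 with limma. Signs turned with limma for Cebpa (0.11), Cidec (0.60), Foxo1 (0.013), Pparg (0.23), and with total counts and limma for Elovl5 (0.28 and 0.33), Klb (0.048 and 0.48), Slc25a4 (0.065 and 0.29) and Ryr2 (0.99 and 0.71, and 1.07 with the replicate block). With a mouse left out the ranges crossed 0 for Cidec (-0.74 to 0.28), Fgfr1 (-0.26 to 0.33), Klb (-0.66 to 0.069), Pprc1 (-0.090 to 0.35) and Ryr2 (-0.59 to 2.31). The cause was not tested. Ratios to adipocyte genes crossed 0 for Ppargc1b (-0.64 to 0.024), Cidea (-0.53 to 0.17) and Prdm16 (-0.90 to 0.79). With Adipoq and Plin1 as the only reference genes, 2 members had HFD below NCD, and 1 to 2 with a mouse left out. The share of all genes with that pattern was not computed for these settings, so nothing is concluded from these counts. Depth limits Ucp1 and Elovl3, with at most 18 counts in a library.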

Other observations

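Single mice stood apart for genes around the program. Cebpb, an early factor of adipocyte differentiation that also responds to inflammation, was at 60.1 TMM-scaled CPM in HFD replicate 2 and at 1.44 to 8.58 in the other mice, and the mesothelial gene Upk3b was also highest there, at 164 against 33.7 to 80.8. Cyp2e1, listed with the liver genes, was at 624, 1264 and 4164 on NCD and 43.4, 168 and 39.8 on HFD, while the liver gene Ttr had counts in the HFD libraries only, at 2.81, 0.0599 and 0.112. The glycerol kinase Gk, which recycles glycerol in brown and beige fat, was at 5.63, 14.3 and 11.7 on NCD and 26.9, 28.5 and 36.9 on HFD, with a log2 fold change of 1.54 ± 0.36 (edgeR adjusted p = 0.056, and 1.26 ± 0.20 with 0.014 without NCD replicate 1). Acot11, a thioesterase induced by cold in brown fat, was at 20.7, 4.31 and 2.64 on NCD and 10.8, 8.30 and 9.74 on HFD, so its log2 fold change of 0.06 ± 0.76 became 1.48 ± 0.28 without that mouse (edgeR adjusted p = 0.96 and 0.020).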
